A study of Neurospora crassa with 12 samples.

Results

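The 7 chitin synthase genes of *Neurospora crassa*, *chs-1* to *chs-7*, were followed by RNA sequencing while conidia germinated on potato dextrose agar (PDA). They were chosen by gene ID out of the 10592 genes counted, and all 7 had counts in every library and passed the filter on low counts. The strain was the wild-type *mat A* strain FGSC2489, plated as macroconidia, the asexual spores, on cellophane over PDA at 25°C under continuous white light. The labels and methods give this temperature, although a higher one is stated for PDA elsewhere in the study. Tissue was collected at 15 min (fresh spores), 120 min (first polar growth), 240 min (the long axis extended by the germ tube), and 360 min (first hyphal branching), with 3 replicates per stage and 12 libraries in all. Each replicate pooled the tissue of several plates from one collection, and only a majority of the spores, not all, was at the named stage. In such bulk samples, fewer cells of a kind and less mRNA per cell cannot be told apart.

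Chitin, a polymer of N-acetylglucosamine, is a structural fiber of the fungal cell wall and of septa. Chitin synthases are membrane enzymes that draw on cytoplasmic UDP-N-acetylglucosamine and extrude the chain through the plasma membrane. In filamentous fungi they are carried in vesicles to the growing tip, where they gather in the Spitzenkörper, and to forming septa. Filamentous fungi hold several classes of the enzyme. In *N. crassa*, *chs-3* encodes class I, *chs-2* class II, *chs-1* class III, *chs-4* class IV, *chs-5* class V, *chs-6* class VI, and *chs-7* class VII. The enzymes of classes V and VII carry a myosin motor-like domain ahead of the catalytic part.

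In assembly NC12 the genes lie on 3 chromosomes. *chs-4* (NCU09324) spans 4237057 to 4241723 on chromosome I. *chs-1* (NCU03611) spans 1835177 to 1839458 and *chs-3* (NCU04251) 5359920 to 5364389 on chromosome V. The other four are on chromosome IV, with *chs-5* (NCU04352) from 3672145 to 3678922, *chs-7* (NCU04350) from 3683097 to 3689591, *chs-6* (NCU05268) from 5526379 to 5529412, and *chs-2* (NCU05239) from 5644611 to 5649671. The reference table gives no symbol for NCU05239 and NCU04350. *chs-5* and *chs-7* are 4174 bp apart, and the 1 annotated gene between them, NCU04351, had 0 counts in all 12 libraries.

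The libraries held 51555784 to 84946272 counts, and expression is given as CPM, counts scaled to a common library size with the TMM factors of edgeR. A count of 0 would allow up to 3 counts, or 0.0353 to 0.0582 CPM in a single library, from counting error alone. At 360 min replicate 3 stood apart from its group, with a median absolute deviation from the stage mean of 0.12 on the log2 scale over the tested genes, against 0.041 to 0.085 in the other 11 libraries. The labels were checked with 5 genes known for high mRNA in conidia or during conidiation (*eas*, *con-6*, *con-8*, *con-10*, and *con-13*). All 5 fell between 15 and 120 min, with log2 fold changes from -8.71 to -3.76 (largest adjusted p = 1.7e-07). Their summed expression was 4486 to 4659 CPM in the libraries of 15 min, 25.3 to 36.7 at 120 min, 16.4 to 18.5 at 240 min, and 11.5 to 23.5 at 360 min, with *con-13* at 0 in all libraries of 240 min. The ranges of 240 and 360 min overlapped, so this check cannot tell the labels of those stages apart.

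The 7 genes moved in opposite directions when polar growth began. Between 15 and 120 min *chs-1*, *chs-2*, *chs-3*, and *chs-4* were upregulated, and *chs-5*, *chs-6*, and *chs-7* were downregulated (edgeR's quasi-likelihood test, Benjamini-Hochberg adjusted p at 0.05; errors below are standard errors of the fit, SE). This was an interval in which most genes changed, with 43.1% of the 8118 tested genes upregulated and 39.6% downregulated, so that 4 and 3 of 7 are near the background. Between 120 and 240 min 6 of the 7 genes were upregulated and 0 were downregulated, against 12.6% and 9.73% of all tested genes. Between 240 and 360 min only *chs-3* was upregulated and 0 were downregulated, against 20.7% and 21.1%. Fresh conidia against first branching (15 against 360 min) gave 4 upregulated and 3 downregulated members, against 44% and 40%. The median log2 fold change of the 7 genes was 0.26, 0.30, and 0.042 over the successive intervals, and that of all tested genes was 0.042, 0.0040, and 0.021. Judged by libraries that did not overlap, all 3 later libraries were above all 3 earlier ones for 4 members at 120 min, 6 at 240 min, and 2 at 360 min (44.6%, 24.2%, and 26.1% of all tested genes), and below them for 3, 1, and 0 members (41.7%, 22.0%, and 25.7%). At 360 against 15 min these numbers were 4 and 3 (44.0% and 40.9%). Any difference among the 4 stages was called for 7 of 7 genes and for 89.8% of all tested genes (edgeR F test).

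**Figure D1:**
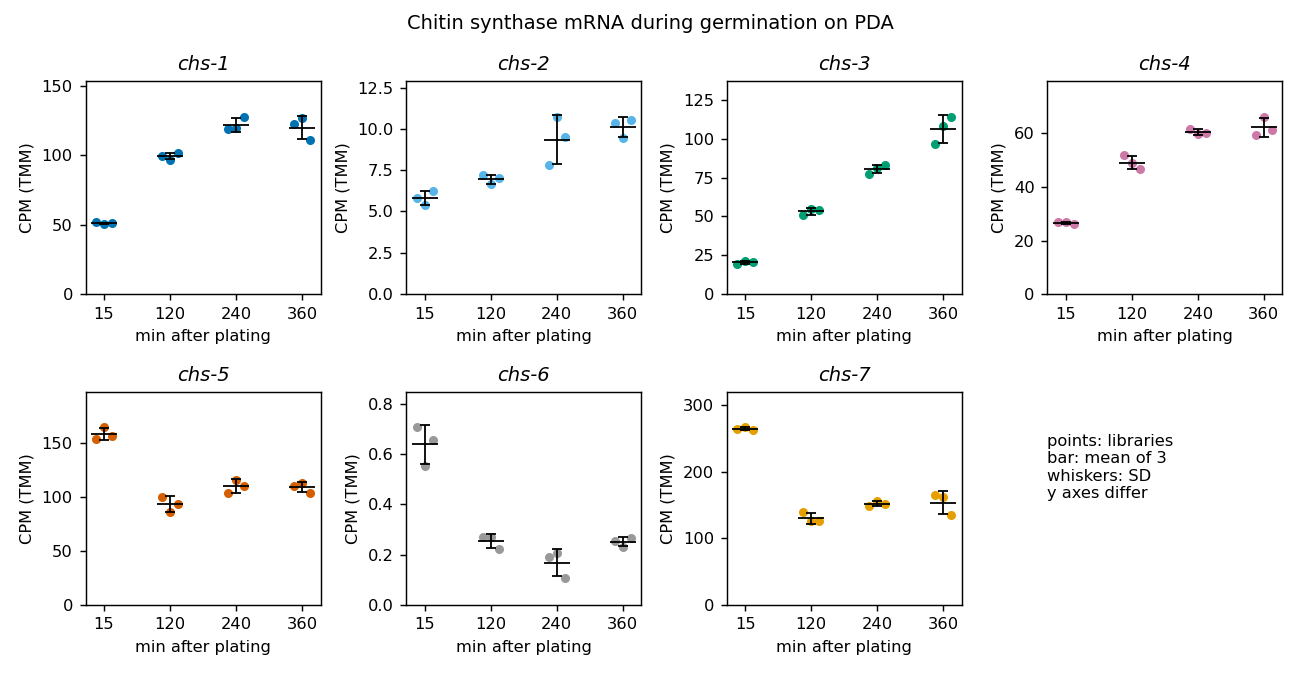
TMM-scaled CPM of each chitin synthase gene (y axis, linear from 0, a different range in each panel) against the time after plating (x axis, 4 stages). Points are the 12 libraries, bars the means of 3, and whiskers the SD. *chs-1*, *chs-3*, and *chs-4* climb from the first stage, while *chs-5*, *chs-6*, and *chs-7* are highest at 15 min.

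The gene with the largest rise was *chs-3*, of class I. In the 3 libraries of each stage its expression was 19.4, 21.1, and 20.7 CPM at 15 min, 50.7, 55.1, and 54.2 CPM at 120 min, 77.4, 81.1, and 83.1 CPM at 240 min, and 96.7, 108, and 114 CPM at 360 min. No library of a later stage overlapped with the libraries of an earlier one. The log2 fold change was 1.38 from 15 to 120 min (SE 0.07, adjusted p = 2.2e-10) and 0.60 from 120 to 240 min (SE 0.06, adjusted p = 7.0e-05). The last interval added 0.40 (SE 0.06, adjusted p = 0.00036), and 0.34 if 360 min replicate 3 is left out (adjusted p = 0.00059). From 15 to 360 min *chs-3* rose 5.21-fold.

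*chs-1*, of class III, was at 51.6, 50.8, and 51.0 CPM at 15 min, 99.5, 96.9, and 101 CPM at 120 min, 119, 119, and 128 CPM at 240 min, and 122, 126, and 111 CPM at 360 min. The first 3 stages were separate from each other, and the last 2 overlapped. It rose 1.94-fold from 15 to 120 min (log2 fold change 0.96, SE 0.05, adjusted p = 1.2e-09) and 1.23-fold from 120 to 240 min (log2 fold change 0.30, SE 0.05, adjusted p = 0.0020). The last interval gave a log2 fold change of -0.026, with a 95% interval from -0.14 to 0.088.

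*chs-4*, of class IV, took a course close to that of *chs-1* at a lower level. Its expression was 26.8, 26.9, and 26.1 CPM at 15 min, 51.7, 48.8, and 46.7 CPM at 120 min, 61.6, 59.7, and 60.2 CPM at 240 min, and 59.3, 66.3, and 61.4 CPM at 360 min. Again the first 3 stages did not overlap and the last 2 did. The log2 fold change was 0.88 from 15 to 120 min (SE 0.05, adjusted p = 2.9e-09), 0.30 from 120 to 240 min (SE 0.05, adjusted p = 0.0019), and 0.042 from 240 to 360 min, with a 95% interval from -0.071 to 0.16.

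*chs-2*, of class II, was among the less expressed members and changed least at the start. It was at 5.83, 5.39, and 6.23 CPM at 15 min, 7.19, 6.65, and 7.01 CPM at 120 min, 7.80, 10.7, and 9.52 CPM at 240 min, and 10.3, 9.45, and 10.6 CPM at 360 min. The ranges of the first 3 stages did not overlap, although the libraries of 240 min were spread widely. The first step was just past the threshold, with a log2 fold change of 0.26 (SE 0.11, adjusted p = 0.048). That call was lost in several alternatives, with adjusted p = 0.062 with the replicate number as a block, 0.31 with RLE factors, 0.38 with DESeq2, and 0.96 with upper-quartile factors, where the value was -0.0068. It was also lost without either of 15 min replicates 1 and 2 (adjusted p = 0.080 and 0.14), any of 120 min replicates 1 to 3 (0.11, 0.056, and 0.091), or 240 min replicate 3 (0.058). The next interval added 0.43 on the log2 scale (SE 0.11, adjusted p = 0.015). From 15 to 360 min *chs-2* rose 1.74-fold (adjusted p = 1.6e-05).

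The highest CPM in fresh conidia belonged to *chs-7*, of class VII. Its expression was 265, 267, and 262 CPM at 15 min, 139, 126, and 125 CPM at 120 min, 149, 157, and 152 CPM at 240 min, and 165, 162, and 134 CPM at 360 min. All libraries of 15 min lay above all later ones, and the low value at 360 min was that of replicate 3. *chs-7* fell to 0.492 of its level from 15 to 120 min (log2 fold change -1.02, SE 0.07, adjusted p = 1.2e-08) and rose again by 0.23 on the log2 scale from 120 to 240 min (SE 0.07, adjusted p = 0.035). At 360 min it was at 0.581 of its level at 15 min (adjusted p = 1.8e-07).

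*chs-5*, of class V, was likewise highest at 15 min and lowest at 120 min. It was at 154, 165, and 156 CPM at 15 min, 100.2, 85.8, and 93.5 CPM at 120 min, 104, 116, and 111 CPM at 240 min, and 110.4, 113, and 104 CPM at 360 min. The fresh conidia were again above every later library, and the libraries of 240 and 360 min overlapped. The log2 fold change was -0.76 from 15 to 120 min (SE 0.06, adjusted p = 7.4e-08) and 0.24 from 120 to 240 min (SE 0.06, adjusted p = 0.016). In the last interval the log2 fold changes were -0.013 for *chs-5* (95% interval -0.15 to 0.12) and 0.013 for *chs-7* (95% interval -0.14 to 0.17).

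The rise of *chs-5* and *chs-7* from 120 to 240 min kept its direction and about its size when any 1 library was left out, with log2 fold changes from 0.18 to 0.29 for *chs-5* and from 0.20 to 0.27 for *chs-7*, but not always its call. Without 120 min replicate 2, 240 min replicate 2, or 240 min replicate 3, *chs-2*, *chs-5*, and *chs-7* were no longer past the threshold, leaving 3 of 7 upregulated in that interval. *chs-7* alone was also lost without 120 min replicate 3 (adjusted p = 0.12) or 240 min replicate 1 (adjusted p = 0.058). *chs-1*, *chs-3*, and *chs-4* kept their calls there whichever library was left out. How many of all tested genes lost their calls in the same way was not computed.

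*chs-6*, of class VI, was near the limit of what these libraries could measure. Its counts were 45, 34, and 38 at 15 min, 18, 19, and 17 at 120 min, 16, 11, and 7 at 240 min, and 18, 14, and 19 at 360 min. The lowest of these, 7 counts, stood for 0.107 CPM with a 95% Poisson interval from 0.0431 to 0.221, which covers counting error only. Mean expression fell from 0.639 ± 0.0783 to 0.254 ± 0.0282 CPM between 15 and 120 min (SD, n = 3), or by -1.33 on the log2 scale (SE 0.31, adjusted p = 0.0015). The 120 and 240 min libraries did not overlap, and neither did those of 240 and 360 min, but the log2 fold change of -0.59 in the first of these intervals (95% interval -1.34 to 0.16, adjusted p = 0.25) and that of 0.58 in the second (95% interval -0.18 to 1.33, adjusted p = 0.21) did not pass the test.

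**Figure D2:**
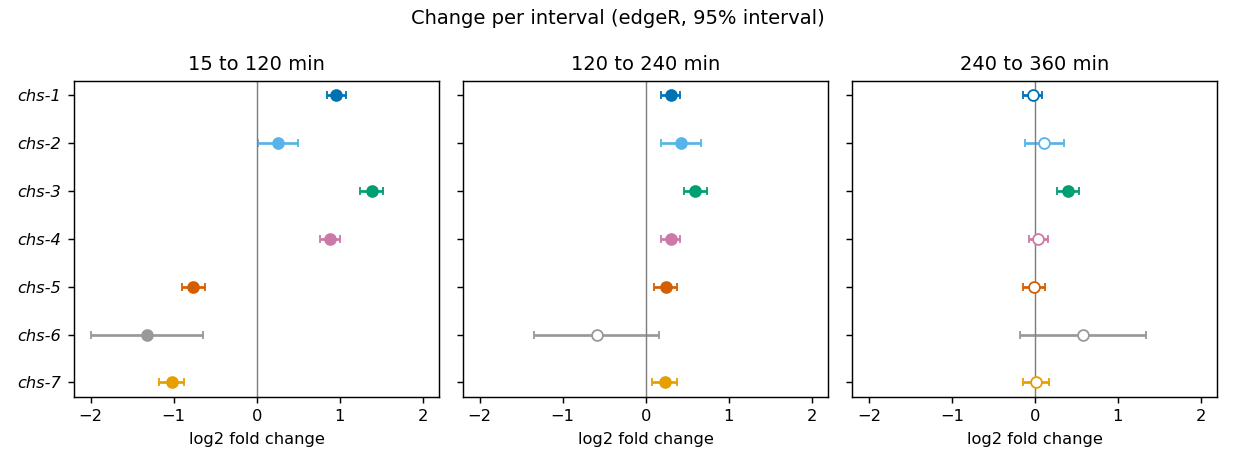
Log2 fold change (x axis) of the 7 genes (rows) in each of the 3 intervals between successive stages, from the edgeR fit over 12 libraries with 95% intervals. Filled points have an adjusted p under 0.05. In the first interval 4 genes lie above 0 and 3 below, in the second 6 lie above 0, and in the third *chs-3* alone is past the threshold.

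The fall of *chs-5*, *chs-6*, and *chs-7* accompanied the loss of the conidial mRNAs, of which all 5 fell in the same interval. Their falls were of different size, since *chs-7* kept 0.492, *chs-5* 0.589, and *chs-6* 0.399 of the level in fresh conidia, while the log2 fold change of the conidial gene that fell least was -3.76. The part of ungerminated spores in these values was not tested.

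Levels of different genes can be compared only per length, and CPM was therefore divided by the span of each gene in kb, introns included. In fresh conidia the order was *chs-7* with 40.8 CPM per kb, *chs-5* with 23.4, *chs-1* with 11.9, *chs-4* with 5.70, *chs-3* with 4.57, *chs-2* with 1.15, and *chs-6* with 0.211 (stage means, n = 3). The libraries of neighbors in this order did not overlap at 15, 120, or 240 min. At 120 min *chs-1* was first, with 23.2 CPM per kb, followed by *chs-7* with 20.03. By 240 min *chs-3*, with 18.0 CPM per kb, had passed *chs-5*, with 16.2. Both changes of order rest on the spans, whose difference from the mRNA lengths was not examined. In CPM not divided by span, *chs-7* (130) was above *chs-1* (99.2) at 120 min, and *chs-5* (110) above *chs-3* (80.6) at 240 min. At 360 min *chs-1* was at 28.0 CPM per kb, while *chs-3* with 23.8 and *chs-7* with 23.7 overlapped and were the only neighbors that did. This order rests on the spans too. Not divided by span, the mean CPM at 360 min was 154 for *chs-7*, 120 for *chs-1*, 109 for *chs-5*, and 106 for *chs-3*. *chs-2* and *chs-6* held the last places at all 4 stages, and at 360 min *chs-2*, with 2.00 CPM per kb, was 6.68-fold below *chs-4*.

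Summed over the 7 genes, the level per kb amounted to 87.7 ± 1.16 at 15 min, to 80.9 ± 2.33 at 120 min, to 101 ± 2.61 at 240 min, and to 107 ± 4.34 CPM per kb at 360 min (SD, n = 3). *chs-5* and *chs-7*, the genes of the myosin motor-like enzymes, made up 73.1 ± 0.326% of the sum at 15 min and 41.8 ± 1.48% at 120 min, then 39.3 ± 0.952% at 240 min and 37.1 ± 2.00% at 360 min. *chs-1*, *chs-3*, and *chs-4* together made up 25.3 ± 0.196%, 56.4 ± 1.50%, 58.9 ± 1.16%, and 60.9 ± 1.93% at these stages. The share of *chs-3* alone went from 5.21 ± 0.181% to 22.3 ± 2.36% between the first and the last stage. The shares are ratios within a library, so the scaling of libraries does not enter them. The spans, introns included, enter both the shares and the sums. At 120 min the mean CPM not divided by span was 130 for *chs-7* and 93.2 for *chs-5*. It was 99.2 for *chs-1*, 53.3 for *chs-3*, and 49.1 for *chs-4*. Which group of genes was larger at 120 min therefore rests on the spans, and shares of undivided CPM were not computed. Scaling also enters the sums. From 15 to 360 min, upper-quartile factors shifted the median of all genes by -0.24 on the log2 scale. RLE factors shifted it by -0.15, and library totals alone by 0.30. In CPM not divided by span, the libraries of fresh conidia summed to 523.0 to 536.5. This range overlapped with the 240 min libraries (518.4 to 543.7) and those of first branching (535.7 to 585.7). The 120 min libraries were lower (419.1 to 448.8).

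**Figure D3:**
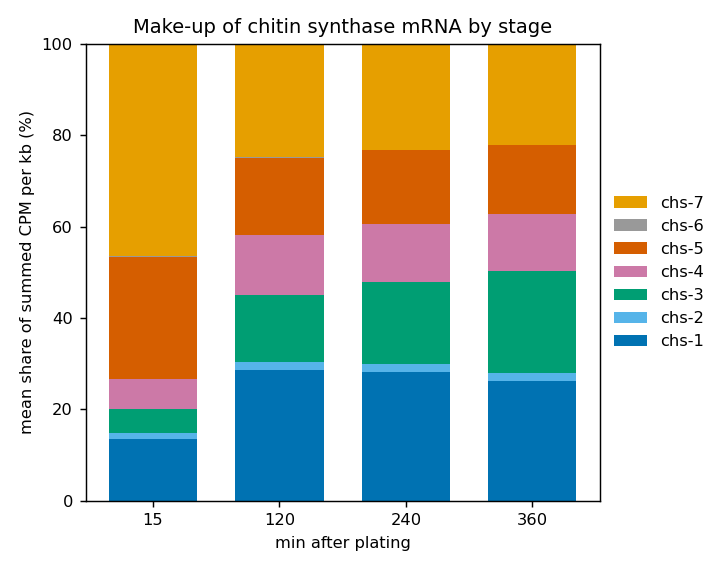
Mean share of each gene (stacked colors, n = 3 libraries) in the summed CPM per kb of the 7 chitin synthases (y axis, percent) at each stage (x axis, min after plating). *chs-5* and *chs-7* hold 73.1% at 15 min and 37.1% at 360 min.

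Against the rest of the genome, the level per kb of *chs-7* was above 83.6% of 8117 tested genes with a known span at 15 min and above 71.2% at 120 min. For *chs-1* this percentile was 66.0 at 15 min and 77.7 at 360 min, and for *chs-3* it was 47.0 and 74.3. *chs-4* stayed near the middle, between 51.4 and 60.8, and *chs-2* between 23.0 and 27.7. *chs-6* did not exceed 5.8 at any stage. The median tested gene was at 5.31 CPM per kb at 15 min and 8.83 at 360 min.

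*chs-5* and *chs-7* lie close together, and their ratio within a library was examined, since it does not depend on scaling. The log2 ratio of *chs-5* to *chs-7* counts was -0.78, -0.70, and -0.75 in the libraries of 15 min. It was -0.47, -0.55, and -0.42 at 120 min, -0.52, -0.43, and -0.46 at 240 min, and -0.57, -0.52, and -0.37 at 360 min. All libraries of 15 min lay below all later ones, while the later stages overlapped. The mean log2 ratio rose by 0.26 from 15 to 120 min, so that *chs-7* lost proportionally more. The difference among the 4 stages had an exact permutation p of 0.017 over 369600 arrangements of the 12 libraries. Leaving out any 1 library gave an exact permutation p from 0.0053 to 0.031.

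**Figure D4:**
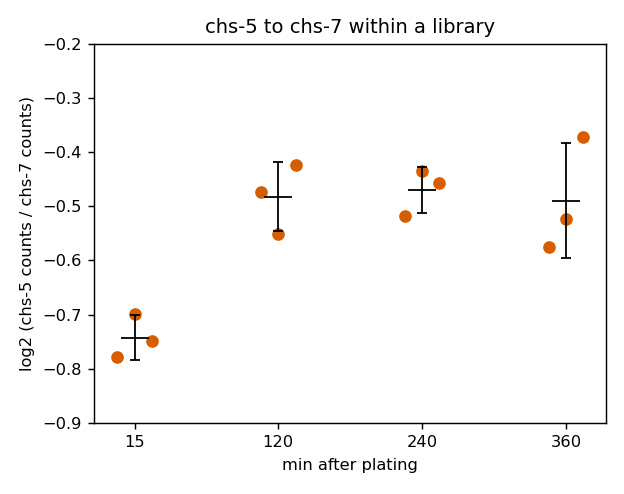
Log2 ratio of *chs-5* to *chs-7* counts within a library (y axis) at each stage (x axis, min after plating). Points are libraries, bars the means of 3, and whiskers the SD. The libraries of 15 min, from -0.78 to -0.70, lie below the other 9, from -0.57 to -0.37.

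Over the 12 libraries, Pearson's r of log2 CPM between members was 0.99 for *chs-1* and *chs-4*, 0.98 for *chs-3* and *chs-4*, 0.98 for *chs-5* and *chs-7*, and 0.97 for *chs-1* and *chs-3*. It was -0.85 for *chs-1* and *chs-7* and -0.46 for *chs-2* and *chs-5*. These values mostly describe the 4 stage means, which all libraries of a stage share.

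Among all tested genes, those most like *chs-1* were NCU08340 (r = 0.997), *gh63-1* (0.996), and NCU01992 (0.996). Those most like *chs-3* were NCU17116 (r = 0.999), NCU02219 (0.998), and NCU02775 (0.996). *chs-4* was closest to NCU09469 (r = 0.996) and to the carotenoid synthesis genes *al-3* (0.996) and *al-2* (0.995). *chs-2* was closest to *tcu-3* (r = 0.968), *ccg-16* (0.963), and *pex13* (0.950). Of the genes that were highest in fresh conidia, *chs-7* was closest to NCU05575 (r = 0.997), NCU00432 (0.994), and NCU00446 (0.994). *chs-5* was closest to *eat-3* (r = 0.991), NCU06198 (0.984), and NCU03164 (0.983), and *chs-6* to NCU16587 (0.972), NCU12058 (0.968), and NCU00604 (0.964). Each r is over 12 libraries in 4 stages and describes the shape of a profile only. None of these genes is a chitin synthase, so that no member was among the 3 genes most like another.

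Of the genes that supply or degrade chitin, those with a telling symbol in the reference were examined. *gfa1* (NCU07366), which bears the name of the *Saccharomyces cerevisiae* gene for the amidotransferase that opens the route to UDP-N-acetylglucosamine, was chosen after the symbols had been seen. Its expression was 23.9, 22.8, and 22.4 CPM at 15 min, 165, 161, and 169 CPM at 120 min, 193, 206, and 209 CPM at 240 min, and 197, 186, and 199.9 CPM at 360 min. It rose 7.17-fold from 15 to 120 min (log2 fold change 2.84, SE 0.05, adjusted p = 2.0e-14) and 1.23-fold from 120 to 240 min (adjusted p = 0.0012). Its libraries of 15 min were separate from all others, and the rise was larger than that of any chitin synthase gene in the same interval.

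The genes named for glycoside hydrolase family 18, the family of the chitinases, and *chit-1* numbered 10, of which 7 passed the filter on low counts. *gh18-1*, *gh18-2*, and *gh18-8* did not, and each had 0 counts in several libraries. Between 15 and 120 min 1 of the 7 was upregulated and 5 were downregulated, against 43.1% and 39.6% of all tested genes, with a median log2 fold change of -1.07 against 0.042 over all tested genes. Between 120 and 240 min 1 was upregulated and 0 were downregulated (12.6% and 9.73% of all tested genes), with medians of 0.27 and 0.0040. Between 240 and 360 min 1 was upregulated and 2 were downregulated (20.7% and 21.1%), with medians of -0.068 and 0.021. Without 240 min replicate 1 or 360 min replicate 3, 2 of the 7 passed the test between 120 and 240 min, and the share of all tested genes was not computed there. *gh18-4* fell furthest, from 26.2, 27.9, and 28.2 CPM at 15 min to 0.468, 0.454, and 0.600 CPM at 120 min (log2 fold change -5.75, SE 0.19, adjusted p = 5.8e-12). *chit-1* was at 8.17, 7.02, and 8.08 CPM at 15 min, 1.04, 1.60, and 1.49 CPM at 120 min, 6.10, 7.80, and 6.35 CPM at 240 min, and 34.4, 45.6, and 35.7 CPM at 360 min. It thus fell first and then rose 4.86-fold and 5.73-fold over the later intervals (adjusted p = 4.5e-06 and 2.3e-06). *gh18-6* fell to 0.360 and *gh18-5* to 0.478 of their level between 15 and 120 min, and *gh18-7* rose 1.59-fold (adjusted p = 6.7e-09, 1.0e-06, and 0.00020). *gh18-9* fell to 0.512 of its level in that interval (adjusted p = 0.00037), and *gh18-3* was the gene without a call, with at most 21 counts in a library.

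**Figure D5:**
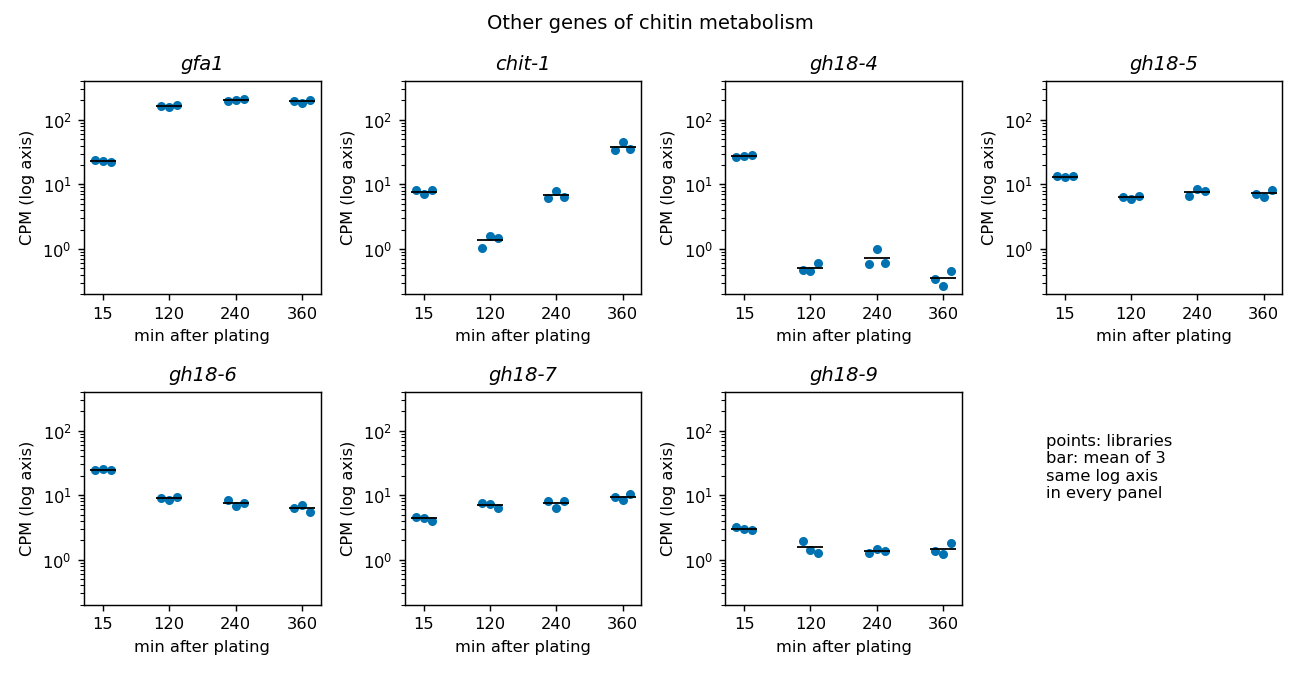
TMM-scaled CPM (y axis, logarithmic, the same range in every panel) of *gfa1*, *chit-1*, and 5 genes of glycoside hydrolase family 18 at each stage (x axis, min after plating). Points are libraries and bars the means of 3. *gfa1* lies between 22.4 and 23.9 CPM at 15 min and at 161 CPM or more later, and *chit-1* is lowest at 120 min and highest at 360 min.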

How the data were processed

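The members and gene lists were chosen with earlier results of these data known. The deposited counts are whole numbers per gene and are not normalized. Per the labels and the methods, the authors aligned trimmed paired-end reads with HISAT2 (version 2.1.0) to version 12 of the OR74A genome, discarded alignments of low mapping quality, and turned the coverage from StringTie (version 1.3.3b) into rounded counts, so that a count is an estimate of reads. Replicates were not pooled. The authors' table of LOX expression ratios between stages was not used. Symbols, spans, and coordinates came from a RefSeq table of NC12 (10590 of 10592 gene IDs matched), which gives no gene products, so that the lists of other chitin genes, planned by product, could be made by symbol only.

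edgeR (version 4.0.16, under R 4.3.3) was fitted to all 12 libraries after filterByExpr, with a mean for each stage and TMM scaling. Quasi-likelihood p-values were adjusted after Benjamini and Hochberg over the 8118 genes kept, and 0.05 was the threshold. Standard errors were obtained from the fold change and its F statistic. The *chs-5* to *chs-7* ratio was tested by exact permutation in Python 3.11.15 with SciPy 1.17.1, one-sided toward larger differences among stages, with 6.5e-05 as the smallest p it allows. Profiles were compared on log2 CPM with a prior count of 2. Named were the 7 members, of each list up to 4 genes by mean CPM past the F test and any in a count of 5 or fewer, and the 3 genes most like each member. Alternatives were other scalings, no filter, DESeq2 (version 1.42.0), only the 2 stages compared, a test against a 2-fold change, a replicate block, and leaving out each library. The steps were tested on simulated data. Figures were drawn with matplotlib 3.10.9. Replicates are biological per the methods. No pair of libraries of a stage agreed within sampling noise (chi-square per gene at least 15.1).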

Additional observations from a re-analysis of the deposited data

How the results depend on the processing

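Of 532 recomputed fold changes of the 7 genes, 493 kept direction and side of the threshold, 20 were no longer past it, 3 were newly past it, and 16 changed sign. A value that changed sign was counted as such only, also where it crossed the threshold. All sign changes were in values not past the threshold in the main test, except that of *chs-2* from 15 to 120 min (-0.0068 with upper-quartile factors, which shifted the median of all genes by -0.26). From 240 to 360 min, library totals alone shifted all genes by 0.20 and gave 6 upregulated members in place of 1. There *chs-1* was 0.18 and *chs-5* 0.19, as against 0.0064 and 0.020 with upper-quartile factors. *chs-7* was -0.0041 with RLE factors and -0.0040 with DESeq2. Leaving out each library gave -0.068 to 0.026 for *chs-1*, -0.0014 to 0.23 for *chs-2*, -0.0056 to 0.073 for *chs-4*, -0.054 to 0.026 for *chs-5*, and -0.041 to 0.10 for *chs-7*, and the cause was not tested. Library totals alone also moved the share of upregulated genes among all calls from 49.6 to 85.3% from 240 to 360 min and from 56.4 to 72% from 120 to 240 min.

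Against a 2-fold change, 1 member (*chs-3*) was upregulated and 0 downregulated from 15 to 120 min, and 0 were upregulated in either later interval. From 15 to 360 min *chs-1*, *chs-3*, and *chs-4* were upregulated and 0 members were downregulated. Of the breakdown genes, 3, 1, and 3 passed from 15 to 120, 240 to 360, and 15 to 360 min. Leaving out each library gave 3 to 6 upregulated members and 1 to 2 called breakdown genes from 120 to 240 min. The share of all tested genes called was not computed for the 2-fold test or with a library left out. These counts therefore have no background beside them. Mean CPM under other scalings moved by more than the SD in 35 of 84 cases (20 higher, 15 lower). Replicate numbers did not pair the libraries (r of deviations -0.092 to 0.10 for 18 same-numbered pairs, and the best match had the same number in 15 of 36 cases). With the replicate block the number upregulated from 15 to 120 min was 3 in place of 4, since *chs-2* (0.26) was no longer past the threshold, and no other call of a member changed. Counting error limits *chs-6* most.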
